A study of Mus musculus with 20 samples.

Results

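Kcnh1, Smyd2, Ints7, Flvcr1, Pacc1 (listed as Tmem206 in the array's older annotation) and Rcor3 are 6 genes of mouse chromosome 1 that lie close to Hsd11b1, the gene disrupted in the knockout mice described here. They were chosen because earlier results of the same arrays had shown genotype differences near this locus, and every probe set listed with 1 of these symbols alone was taken. Of the 18193 genes with a probe set of their own these are 6, and they had 19 of the 45037 probe sets of the array, and 8 of the 19 passed the filter on normalised intensity (100 or more in at least 2 of the 20 mice), as did 16995 probe sets in all. By the starts of the RefSeq genes (GRCm38.p6), all 6 lie on the same side of Hsd11b1. Kcnh1 was the nearest at 1.03 Mb, followed by Rcor3 at 1.12 Mb, Ints7 at 1.65 Mb, Pacc1 at 1.90 Mb, Flvcr1 at 2.22 Mb and Smyd2 at 3.34 Mb.

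Each of 20 male mice gave hippocampal total RNA for 1 Affymetrix 430 2.0 array. The knockout mice (Hsd11b1-/-) carried a homozygous targeted disruption of the gene for 11β-HSD1 and were congenic on C57BL/6J, and the wild-type mice were C57BL/6J. There were 4 mice each in WT_Y and KO_Y (6 months of age) and in WT_AU, WT_AI and KO_A (24 months), where WT_AU and WT_AI were aged wild-type mice with unimpaired and impaired spatial memory in a Y-maze and together form WT_A. Single mice are given as the group name followed by the mouse number of the labels. Each knockout mouse carried the disrupted allele with whatever flanking DNA remained from the strain in which it was made, so that effects of the allele and of the flanking DNA cannot be told apart. Likewise, each value is the hybridisation of short probes made to a reference sequence, and the amount of a transcript and its match to the probes cannot be told apart from an array alone.

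The hippocampus is rich in receptors for glucocorticoids, and 11β-HSD1 regenerates the active hormone from its inert keto form inside cells. The 6 neighbours share a place on the chromosome and belong to different pathways. Kcnh1 encodes a voltage-gated potassium channel of the ether-à-go-go family found in forebrain neurones, and Pacc1 the proton-activated chloride channel. Flvcr1 encodes a membrane transporter known for heme export and choline uptake. Ints7 encodes a subunit of Integrator, the complex that cleaves nascent small nuclear RNAs and other transcripts, Smyd2 a lysine methyltransferase, and Rcor3 a corepressor of the CoREST family, which works with a histone demethylase and histone deacetylases. A congenic strain is made by repeated crossing to a recipient strain with selection for 1 allele, and genes close to the selected allele travel with it more often than distant ones.

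The promoters of the 4 genes whose probe sets differed most between genotypes among those above the filter follow, to give the sequence context in which the values that follow stand. They are RefSeq sequences of GRCm38.p6, 250 bases before to 50 bases after the annotated start, written 5′ to 3′, with capitals for the CCAAT box (CCAAT or, on the other strand, ATTGG). They come from the reference strain, and no sequence of the knockout mice was read here. The Kcnh1 promoter is chr1:192190527-192190826 on the plus strand, that of Pacc1 chr1:191325652-191325951 on the plus strand, that of Ints7 chr1:191575386-191575685 on the plus strand and that of Flvcr1 chr1:191026141-191026440 on the minus strand.
Kcnh1 promoter: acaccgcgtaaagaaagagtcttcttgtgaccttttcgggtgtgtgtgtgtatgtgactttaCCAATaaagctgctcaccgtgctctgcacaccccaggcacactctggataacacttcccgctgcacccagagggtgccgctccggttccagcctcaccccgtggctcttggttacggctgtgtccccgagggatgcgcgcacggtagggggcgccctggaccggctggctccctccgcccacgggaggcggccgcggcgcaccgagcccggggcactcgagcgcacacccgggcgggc
Pacc1 promoter: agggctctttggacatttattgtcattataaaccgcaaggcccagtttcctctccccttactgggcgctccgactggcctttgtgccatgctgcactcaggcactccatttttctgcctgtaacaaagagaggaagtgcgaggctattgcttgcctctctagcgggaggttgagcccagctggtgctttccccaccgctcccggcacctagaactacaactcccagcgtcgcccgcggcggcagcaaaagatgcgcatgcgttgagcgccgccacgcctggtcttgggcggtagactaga
Ints7 promoter: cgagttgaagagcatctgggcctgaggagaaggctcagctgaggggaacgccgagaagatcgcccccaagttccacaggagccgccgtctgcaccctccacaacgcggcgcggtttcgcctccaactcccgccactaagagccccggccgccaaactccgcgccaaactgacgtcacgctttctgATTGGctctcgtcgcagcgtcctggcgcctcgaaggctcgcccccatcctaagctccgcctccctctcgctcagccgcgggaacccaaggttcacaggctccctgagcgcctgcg
Flvcr1 promoter: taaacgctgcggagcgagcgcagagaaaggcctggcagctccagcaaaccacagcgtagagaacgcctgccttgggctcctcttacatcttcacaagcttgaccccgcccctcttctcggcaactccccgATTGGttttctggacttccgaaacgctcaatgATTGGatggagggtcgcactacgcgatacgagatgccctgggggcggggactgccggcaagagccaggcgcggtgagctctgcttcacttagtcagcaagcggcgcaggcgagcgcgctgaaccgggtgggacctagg

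All 6 members were found in the promoter table. Their GC content ranged from 58.0% in Pacc1 to 81.7% in Rcor3, and the number of CG dinucleotides from 18 to 47, against medians of 52.7% and 7 over the 32851 promoters of the same length. The Kcnh1 and Ints7 promoters each hold 1 CCAAT box, the Flvcr1 promoter holds 2, and those of Pacc1, Rcor3 and Smyd2 hold none, while 37.4% of all promoters hold at least 1. The glucocorticoid receptor half-site AGAACA, searched on both strands, was in none of the 6 windows and in 19.0% of all promoters. Of the promoters within 10 Mb of that of Hsd11b1, 16.2% of 198 hold it. The Rcor3 and Kcnh1 promoters lie 52.2 kb apart on opposite strands.

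The arrays carried the genotypes their labels give. Hsd11b1 read 804.2, 633.5, 698.8 and 684.4 in WT_Y, from 549.6 to 748.7 in WT_A, 58.0, 60.6, 60.6 and 63.5 in KO_Y and 65.2, 45.7, 39.5 and 41.6 in KO_A. Of 9 markers of hippocampal neurones, 8 reached 100 in at least 19 of the 20 mice, the exception being Iyd, which read 32.5 to 55.7. Alb, which encodes serum albumin and is made in the liver, was highest in WT_Y-374 (2911.9), WT_Y-369 (1670.4), KO_A-42 (889.3) and KO_Y-578 (747.2), and its part in the member results was measured only by leaving these 4 arrays out. The pituitary transcripts Gh, Prl and Pomc were highest in WT_Y-369, at 1843.9, 187.2 and 435, against medians of 77.35, 16.1 and 93 over all mice. Ttr of the choroid plexus ran from 1142.8 to 21917.7. In KO_A-222 the thalamic transcript Tcf7l2 read 399.1, where the median of all mice was 67.5. The part of these other tissues in the member results was not tested. WT_Y-374 and KO_A-41 lay farthest from the other mice of their groups, with median absolute log2 distances of 0.15 and 0.14 over the probe sets tested. The whole KO_A group was spread out, with distances of 0.105 to 0.142, while those of the WT_A mice were 0.062 to 0.085. The fit used 1 estimate of the spread for all groups, so that its standard errors do not show the wider spread of KO_A.

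Of the 8 member probe sets above the filter, 4 were called between KO_Y and WT_Y by limma (Benjamini-Hochberg adjusted p under 0.05), and 0.129% of all probe sets tested were. Pacc1 was higher in KO_Y, and Kcnh1, Ints7 and Flvcr1 were lower. Between KO_A and WT_A, 2 of the 8 were called, Pacc1 higher and Kcnh1 lower, and 0.0294% of all tested were. The members were selected on these contrasts, so that their genotype differences are given as a description, with no p. The count in young mice was 3, with Kcnh1 no longer called, when KO_Y and WT_Y were fitted alone. The same 3 were called without any 1 of WT_Y-369, WT_Y-373 or KO_Y-585. The count was 2 without KO_Y-575 or without KO_Y-580 (Ints7 and Pacc1 each time), and 1 (Flvcr1) without the 4 arrays of the highest Alb. That last setting took WT_Y-374, WT_Y-369 and KO_Y-578 from the young groups, and Pacc1 still differed by 0.65 and Ints7 by -0.55. The part of the smaller number of mice in this count was not tested. The count in aged mice ran from 0 without KO_A-223 to 4 without KO_A-41, when Ints7 and Smyd2 were added to Kcnh1 and Pacc1, and it was 1 (Pacc1) without any 1 of WT_AU-23, WT_AU-26, WT_AU-57, WT_AI-14, WT_AI-21, WT_AI-51, KO_Y-575, KO_Y-580 or KO_A-222. With array weights 5 were called in aged mice, with KO_A and WT_A fitted alone 0, and with WT_AI or WT_AU alone as the aged wild-type group 0. The share called in aged mice over all probe sets tested rose to 12.8% with array weights and to 8.31% without KO_A-41. It fell to 0.00588% with KO_A and WT_A fitted alone and without KO_A-223, and to 0.0118% with WT_AI or WT_AU alone.

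**Figure D1:**
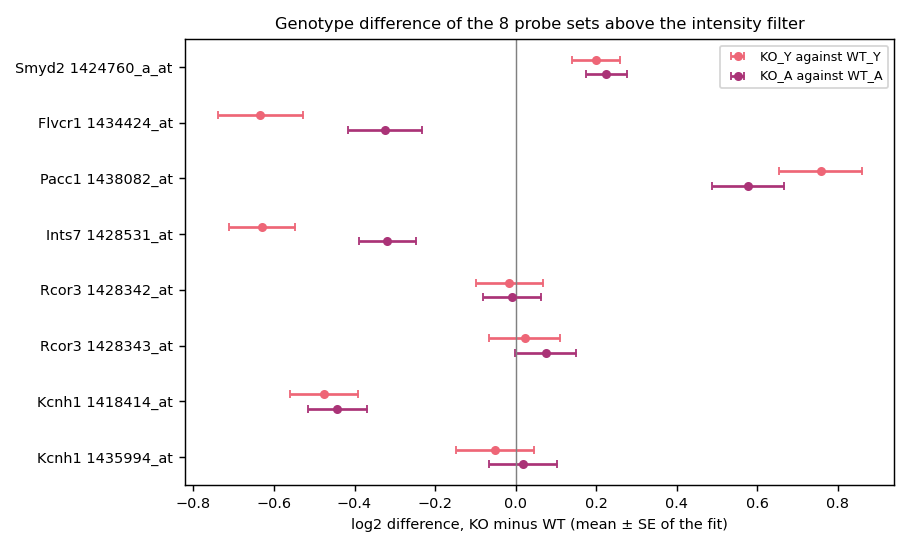
Log2 difference of normalised intensity, knockout minus wild-type (x axis), of the 8 member probe sets above the filter (y axis), in young mice (KO_Y minus WT_Y, 4 mice against 4) and aged mice (KO_A minus WT_A, 4 against 8). Points are fitted differences and bars their standard errors. Pacc1 lies to the right of 0 at both ages, Kcnh1 1418414_at, Ints7 and Flvcr1 lie to the left, Smyd2 lies slightly to the right, and both Rcor3 probe sets and the other Kcnh1 probe set lie near 0.

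Pacc1, the proton-activated chloride channel, had the largest difference of any member above the filter. Its probe set 1438082_at read 96.4, 102.5, 102.9 and 82.3 in WT_Y and 192.3, 164.6, 150.3 and 143.9 in KO_Y. In aged mice it read 79.6 at the lowest, 93.7 at the median and 104.3 at the highest over the 8 WT_A mice, and 154.4, 147.0, 123.4 and 133.9 in KO_A. All 8 knockout mice lay above all 12 wild-type mice. The mean was 163 ± 10.8 in KO_Y and 96.0 ± 4.81 in WT_Y (SEM, n = 4 each), a log2 difference of 0.76 ± 0.10 (SE of the fit) or 1.69-fold. In aged mice the means were 140 ± 6.88 (n = 4) and 93.6 ± 2.96 (n = 8), a log2 difference of 0.58 ± 0.09 or 1.49-fold. The wild-type mice sat about the filter of 100, and 4 of the 12 reached it.

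The other 4 Pacc1 probe sets stayed below 100 in every mouse. Probe sets 1417030_at, 1417031_at and 1448552_s_at were designed on 1 source sequence, and 1438914_at read no more than 12.2. None of the 4 separated the genotypes at either age. The log2 difference in young mice was between -0.07 and 0.08 for all 4. In aged mice it was 0.30 for 1417030_at, 0.20 for 1417031_at, 0.19 for 1448552_s_at and 0.06 for 1438914_at. The separation of Pacc1 was thus measured by 1 of 5 probe sets, the brightest.

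Kcnh1, the ether-à-go-go potassium channel, lies nearest to Hsd11b1 of the members and was lower in the knockout mice by 1 of its 2 probe sets. Probe set 1418414_at read 203.5, 180.4, 187.7 and 176.0 in WT_Y and 136.6, 150.5, 135.8 and 116.1 in KO_Y. It read 154.7 at the lowest, 173.9 at the median and 180.9 at the highest in WT_A, and 145.5, 133.6, 109.7 and 119.6 in KO_A. All 8 knockout mice lay below all 12 wild-type mice, with 150.5 in KO_Y-578 and 154.7 in WT_AU-126 as the closest values. The means were 135 ± 7.07 in KO_Y against 187 ± 6.04 in WT_Y, a log2 difference of -0.48 ± 0.08, and 127 ± 7.85 in KO_A against 172 ± 3.32 in WT_A, a log2 difference of -0.44 ± 0.07. The wild-type level was 1.39-fold that of the knockout mice in young and 1.36-fold in aged mice.

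The second Kcnh1 probe set, 1435994_at, was on average the brighter of the pair and overlapped between the genotypes. It read 234.1 to 250.7 in WT_Y, 226.2 to 243.8 in KO_Y, 195.4 to 230.7 in WT_A and 174.1 to 269.3 in KO_A. The log2 difference was -0.05 ± 0.10 in young and 0.02 ± 0.08 in aged mice. The probe sets of Kcnh1 were designed on different source sequences, and one does not stand in for the other.

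Ints7, the Integrator subunit, and Flvcr1, the heme and choline transporter, were both lower in the knockout mice, more so in the young. Ints7 1428531_at read 292.8, 299.5, 250.3 and 327.8 in WT_Y and 202.2, 190.6, 182.8 and 178.2 in KO_Y, where no values overlapped. It read 264.3 at the lowest, 284.4 at the median and 296.8 at the highest in WT_A, and 196.9, 218.1, 238.1 and 259.0 in KO_A, again without overlap. The log2 difference was -0.63 ± 0.08 in young and -0.32 ± 0.07 in aged mice, with means of 188 ± 5.25 in KO_Y, 293 ± 16.01 in WT_Y, 228 ± 13.3 in KO_A and 283 ± 3.97 in WT_A. The ranges of all 8 knockout and all 12 wild-type mice overlapped, because KO_A-223 (259.0) lay above WT_Y-373 (250.3).

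Flvcr1 1434424_at read 208.5, 207.1, 195.3 and 178.0 in WT_Y and 122.0, 146.5, 114.2 and 126.7 in KO_Y. It read 171.4 at the lowest, 202.2 at the median and 216.7 at the highest in WT_A, and 122.7, 185.8, 181.8 and 155.5 in KO_A. The young groups were apart, whereas KO_A-42 and KO_A-222 lay within the range of the aged wild-type mice. The log2 difference was -0.63 ± 0.11 in young mice and -0.32 ± 0.09 in aged mice, and without KO_A-41, the lowest of KO_A, it was -0.20 in aged mice. A second probe set, 1425399_at, read 54.4 to 67.7 over all mice, below the filter, and differed by -0.06 and -0.05.

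The remaining Ints7 probe sets, built on the same source sequence as 1428531_at, were below the filter. Probe set 1452822_at read 61.0 to 89.9 in the wild-type mice and 56.5 to 66.8 in the knockout mice, with overlap at both ages and log2 differences of -0.19 and -0.23. Probe set 1428532_at read 46.4 to 68.6 and 53.6 to 61.9, with differences of -0.01 and 0.04.

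**Figure D2:**
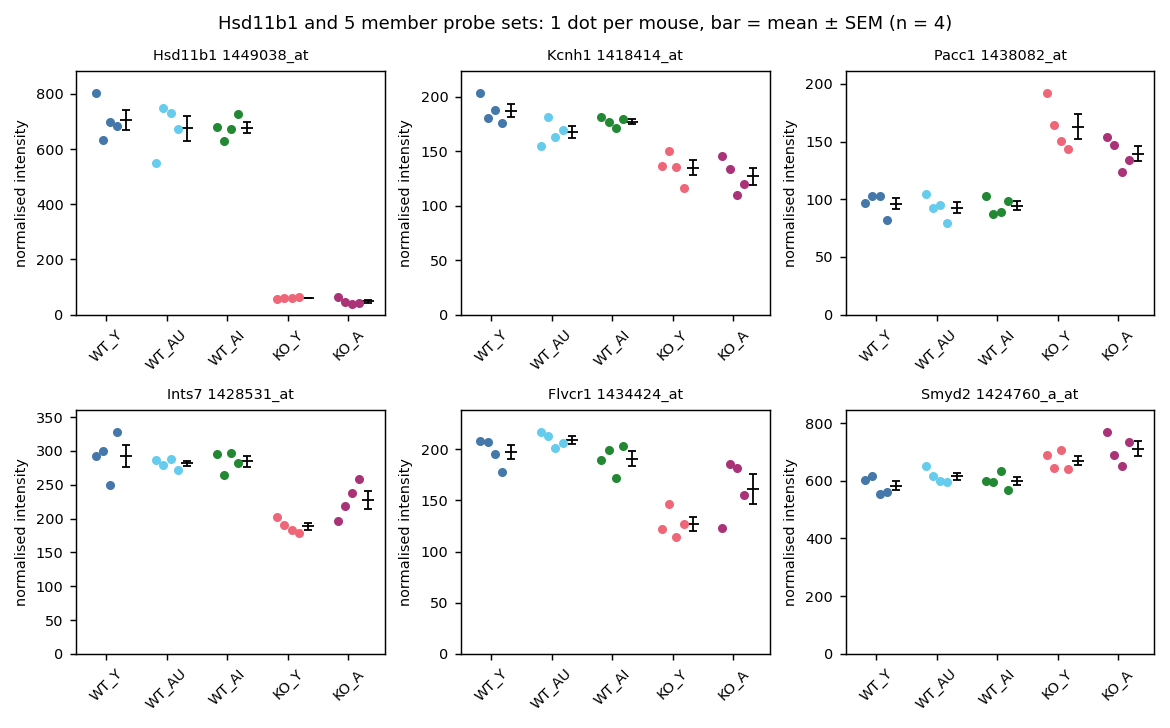
Normalised intensity (linear scale from 0, y axis) of Hsd11b1 and 5 member probe sets in the 5 groups (x axis). Each dot is 1 mouse, and the bar beside each group is its mean ± SEM (n = 4). Hsd11b1, Kcnh1 1418414_at and Pacc1 separate all knockout from all wild-type mice, Ints7 and Flvcr1 stand lowest in KO_Y, and in Smyd2 the knockout groups stand above wild-type mice of their age.

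Smyd2, the lysine methyltransferase and the farthest member, had the highest intensity of the 6 and a small difference of similar size at both ages. Its probe set 1424760_a_at read 601.6, 616.1, 552.8 and 561.7 in WT_Y and 687.6, 643.5, 706.6 and 640.3 in KO_Y. It read 569.3 at the lowest, 598.9 at the median and 649.6 at the highest in WT_A, and 768.6, 690.9, 650.8 and 733.0 in KO_A. The genotypes did not overlap within either age, although KO_A-222 at 650.8 lay close to WT_AU-126 at 649.6. The log2 difference was 0.20 ± 0.06 in young and 0.23 ± 0.05 in aged mice, or 1.15-fold and 1.17-fold. Over both ages 2 of the 8 knockout mice, KO_Y-578 and KO_Y-585, lay within the wild-type range.

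Within young mice, 5 of the 8 member probe sets above the filter did not overlap between genotypes, and 2.57% of all probe sets tested did not. Within aged mice 4 of the 8 did not, and 0.959% of all tested did not. Over all 8 knockout and all 12 wild-type mice, the probe sets without overlap were those of Hsd11b1, Kcnh1 (1418414_at) and Pacc1 (1438082_at), which is 0.0177% of the 16995 tested. Without the filter, 1 probe set of a member was added, making 4 of 45037 (0.00888%). The members were chosen for genotype differences in these same mice, which by itself favours such separation. The member counts are therefore a description.

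That added probe set was Rcor3 1443922_at. It read 33.1, 21.8, 32.2 and 19.0 in WT_Y and 81.7, 69.6, 73.8 and 70.7 in KO_Y. It read 20.9 at the lowest, 29.6 at the median and 34.9 at the highest in WT_A, and 99.1, 68.8, 53.2 and 67.6 in KO_A. Every knockout mouse exceeded every wild-type mouse, with log2 differences of 1.52 ± 0.18 in young and 1.26 ± 0.16 in aged mice. All wild-type values lay below the array medians of 39.4 to 41.3, where a probe set is not shown to be above background, so that the size of this difference is uncertain and was not ranked with those of brighter probe sets. Its highest value, 99.1 in KO_A-41, stood just outside the filter, while Pacc1 1438082_at in wild-type mice, at up to 104.3, stood just inside. In a fit of all 45037 probe sets it was called at both ages, and Kcnh1 1418414_at was then called in young mice alone.

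The 5 other Rcor3 probe sets overlapped between the genotypes. Probe sets 1428342_at and 1428343_at, which share 1 source sequence, were the ones above the filter. The first read 199.4 to 267.4 in the wild-type mice and 206.2 to 260.3 in the knockout mice, and the second 248.9 to 352.2 and 279.1 to 339.0. Their log2 differences were -0.02 and 0.02 in young and -0.01 and 0.07 in aged mice, none as large as its standard error. The other 3, 1432232_at, 1425352_at and 1444364_at, read below 100 in every mouse, with differences from -0.12 to 0.12. Rcor3 was therefore separated by a dim probe set of its own source sequence and not by the brighter pair.

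**Figure D3:**
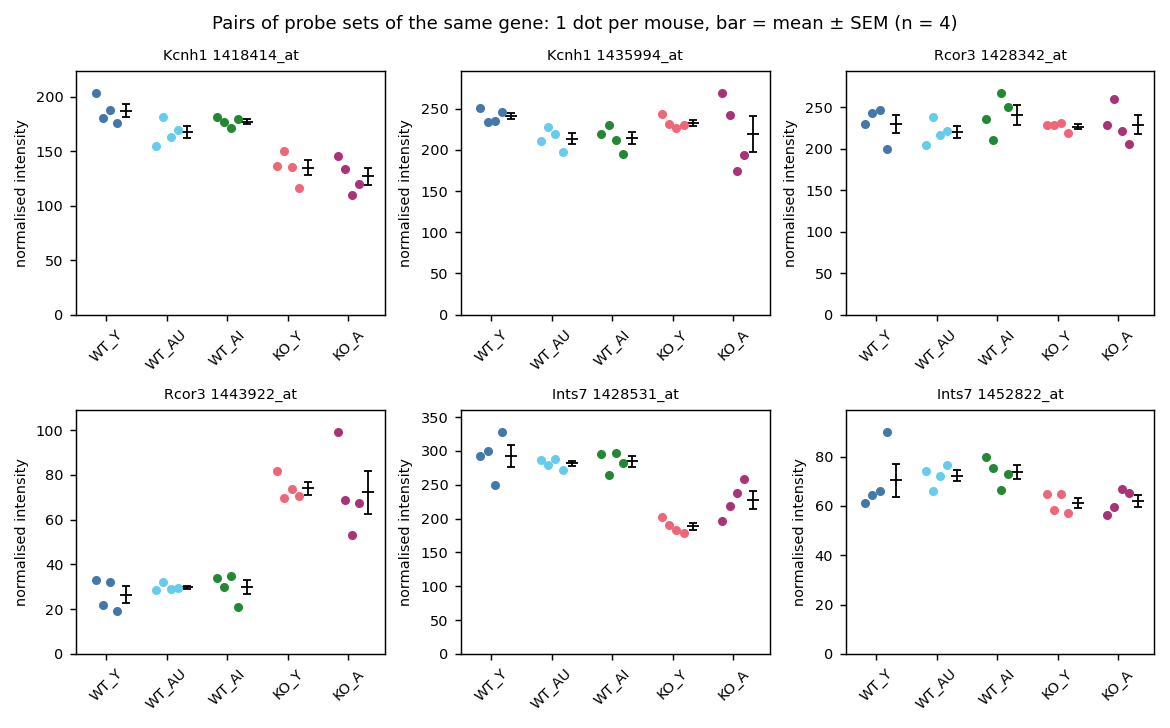
Normalised intensity (linear scale from 0, y axis) of pairs of probe sets of Kcnh1, Rcor3 and Ints7 in the 5 groups (x axis). Each dot is 1 mouse, and the bar beside each group is its mean ± SEM (n = 4). Kcnh1 1418414_at and Rcor3 1443922_at separate the genotypes, whereas Kcnh1 1435994_at and Rcor3 1428342_at overlap, and Ints7 1452822_at shows a smaller difference than Ints7 1428531_at.

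The genotype difference of Ints7 and of Flvcr1 was smaller at 24 than at 6 months by 0.31 on the log2 scale each, and that of Pacc1 by 0.18. For Kcnh1 1418414_at and Smyd2 it moved by 0.03. These differences of differences rest on the contrasts that chose the members and were not tested. Against WT_AI alone, KO_A differed by 0.57 for Pacc1, -0.49 for Kcnh1 1418414_at, -0.32 for Ints7, -0.26 for Flvcr1 and 0.24 for Smyd2. Against WT_AU alone the values were 0.59, -0.40, -0.31, -0.39 and 0.21 in the same order. Both comparisons reuse the KO_A and WT_A mice whose contrast chose the members. The shared signs follow largely from that choice and are a description.

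The age comparisons ask whether the members changed between 6 and 24 months within a genotype. They were not used to choose the members, but they share mice with the comparisons that were. None of the 8 was called between WT_A and WT_Y by limma, while 0.594% of all tested were. None had an unadjusted limma p under 0.05, against 7.10% of all tested. In wild-type mice the log2 differences were -0.04 for Pacc1, -0.04 for Ints7, 0.02 for Flvcr1, 0.06 for Smyd2, 0.00 and -0.06 for Rcor3, and -0.12 for Kcnh1 1418414_at. The largest was that of the second Kcnh1 probe set, 1435994_at, at -0.17 ± 0.08 (limma adjusted p = 0.721). All 8 aged wild-type mice read below all 4 young ones in that probe set, with a two-sided exact permutation p of 0.00404 (smallest possible 0.00202), which is 1 of 8 such tests. For Kcnh1 1418414_at all 8 aged wild-type mice lay below the WT_Y mean, with an exact permutation p of 0.0465 (limma adjusted p = 0.862), and the other 6 had a permutation p of 0.182 or more.

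Between KO_A and KO_Y none of the 8 was called either, while 2.41% of all tested were. An unadjusted limma p under 0.05 was seen in 3 of the 8 and in 20.9% of all tested. Flvcr1 was 0.33 ± 0.11 higher on the log2 scale in KO_A (limma adjusted p = 0.0956, above the KO_Y mean in 3 of 4 mice). Ints7 was 0.27 ± 0.08 higher (limma adjusted p = 0.0832, 4 of 4 mice) and Pacc1 was 0.22 ± 0.10 lower (limma adjusted p = 0.236, 4 of 4 mice). Their two-sided exact permutation p were 0.0857, 0.0571 and 0.143, where 4 mice against 4 allow no less than 0.0286. In each of the 3 the aged knockout mean thus lay nearer to the wild-type mean than the young one did. The members were chosen for differences of these same KO_Y mice from WT_Y, which by itself favours this direction. The p values do not allow for that choice. Without KO_A-41, 2 were called, Flvcr1 at 0.45 (limma adjusted p = 0.00293) and Ints7 at 0.34 (0.0103), and with array weights the same pair was called. The share of all probe sets tested that was called then rose as well, to 15.5% without KO_A-41 and 21.8% with array weights, so that 2 of 8 was near the general share. Over all alternatives the adjusted p ran from 0.00293 to 0.319 for Flvcr1 and from 0.00389 to 0.262 for Ints7. KO_A-41 stood farthest from its group over the probe sets tested and read 122.7 for Flvcr1 and 196.9 for Ints7, in both the lowest of KO_A, and its part in these results was measured only by leaving it out.

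**Figure D4:**
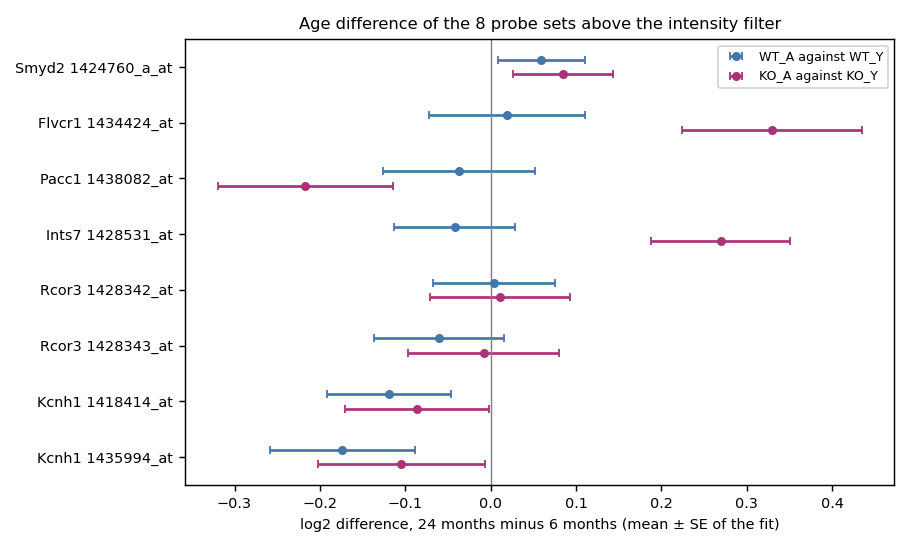
Log2 difference of normalised intensity, 24 minus 6 months (x axis), of the 8 member probe sets above the filter (y axis), in wild-type mice (WT_A minus WT_Y, 8 mice against 4) and knockout mice (KO_A minus KO_Y, 4 against 4). Points are fitted differences and bars their standard errors. Flvcr1 and Ints7 lie to the right and Pacc1 to the left of 0 in knockout mice while lying near 0 in wild-type mice, and no point passed the adjusted threshold.

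No member was called by memory status. Between WT_AI and WT_AU limma called 0% of all probe sets tested, 150 had an unadjusted p under 0.05, and none of these was a member. The largest member differences, WT_AI minus WT_AU, were 0.15 and 0.13 for the Rcor3 pair, -0.13 for Flvcr1 and 0.08 for Kcnh1 1418414_at. For Flvcr1 all 4 WT_AI mice lay below the WT_AU mean, with a two-sided exact permutation p of 0.0571 (smallest possible 0.0286). It is 1 of 8 such tests, and the others had a permutation p of 0.171 or more. All 4 WT_AI mice lay above the WT_AU mean for Rcor3 1428343_at (permutation p 0.171) and Kcnh1 1418414_at (0.2).

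The rest of the neighbourhood is every gene near Hsd11b1 that was not taken as a member. Since members were taken for their genotype differences, the genes left over had to differ less often, and their values are a description. Within 10 Mb of Hsd11b1 lay 133 further probe sets of 66 genes, and 58 of 35 genes passed the filter. None of the 58 was called by limma between genotypes at either age, against 0.129% of all tested in young and 0.0294% in aged mice. The number with an unadjusted p under 0.05 was 3 (5.17%) in young and 7 (12.1%) in aged mice, where it was 3.71% and 14.8% of all probe sets tested. Their median absolute log2 difference was 0.06 in young and 0.08 in aged mice, against 0.05 and 0.07 over all tested and 0.34 and 0.27 over the members, which were chosen for theirs. In young mice 3 of the 58 did not overlap between genotypes, against 2.57% of all tested, and in aged mice none. The 3 were Tatdn3 1428769_at, Kcnk2 1449158_at (201.6 to 240.2 in KO_Y and 272.9 to 319.9 in WT_Y) and Lpgat1 1435327_at (371.5 to 407.1 and 408.7 to 446.3), all lower in KO_Y. None separated all knockout from all wild-type mice, with or without the filter. Within 5 Mb lay 29 of the 58. In young mice these held all 3 with an unadjusted limma p under 0.05 (10.3%) and all 3 without overlap. A log2 difference beyond 0.3 in either direction was seen in young mice in 13.8% of these 29, against 2.12% of all tested. In aged mice it was seen in 3.45%, against 3.08% of all tested. There 17.2% of the 29 had an unadjusted limma p under 0.05, against 14.8% of all tested. Of the 29 from 5 to 10 Mb, 0 in young and 2 in aged mice did. The distal side reached no further than Cr1l, 1.88 Mb beyond Hsd11b1, among probe sets that passed.

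Some neighbours differed by as much as members did, and by more than Smyd2, without being called. Tatdn3 1428769_at, which lies next to Flvcr1, differed by -0.50 ± 0.11 in young mice without overlap (limma adjusted p = 0.156) and by -0.09 ± 0.10 in aged mice (0.654). It was called in young mice with array weights and when KO_A-41 was left out. Kcnk2 1449158_at, a background potassium channel that lies beyond Smyd2, differed by -0.48 ± 0.13 (0.858) and -0.29 ± 0.12 (0.279). In aged mice Lpgat1 1424350_s_at differed by -0.47 ± 0.21 (0.313), while 3 of the other probe sets of Lpgat1 differed by -0.13 to -0.09. With array weights 6 neighbour probe sets were called in aged mice, 2 of Lpgat1, 2 of Plxna2, and those of Nenf and Cr1l, and without KO_A-41 3 were, of Nenf, Cr1l and Plxna2. These are 10.3% and 5.17% of the 58, below the 12.8% and 8.31% of all probe sets called under the same settings.

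Apart from Tatdn3, the nearest genes with a probe set above the filter gave smaller or more scattered values beside the members. Ptpn14 and Prox1, on either side of Smyd2, differed in young mice by -0.21 ± 0.13 and 0.33 ± 0.27 and in aged mice by -0.21 ± 0.11 and -0.07 ± 0.23, with overlap. Nenf and Ppp2r5a, on either side of Pacc1, differed in young mice by 0.00 ± 0.08 and -0.01 ± 0.06 and in aged mice by 0.21 ± 0.07 and 0.03 ± 0.05. Slc30a1, beyond Rcor3, differed by 0.08 ± 0.09 and -0.02 ± 0.08. Sertad4, Syt14 and Utp25, which lie between Kcnh1 and Hsd11b1, differed by 0.11, 0.00 and 0.18 in young and by 0.02, 0.06 and 0.03 in aged mice. Camk1g, the first on the other side of Hsd11b1, differed by 0.17 ± 0.10 and -0.04 ± 0.09. Between Smyd2 and Hsd11b1, 19 probe sets of 13 further genes passed the filter and none was called.

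**Figure D5:**
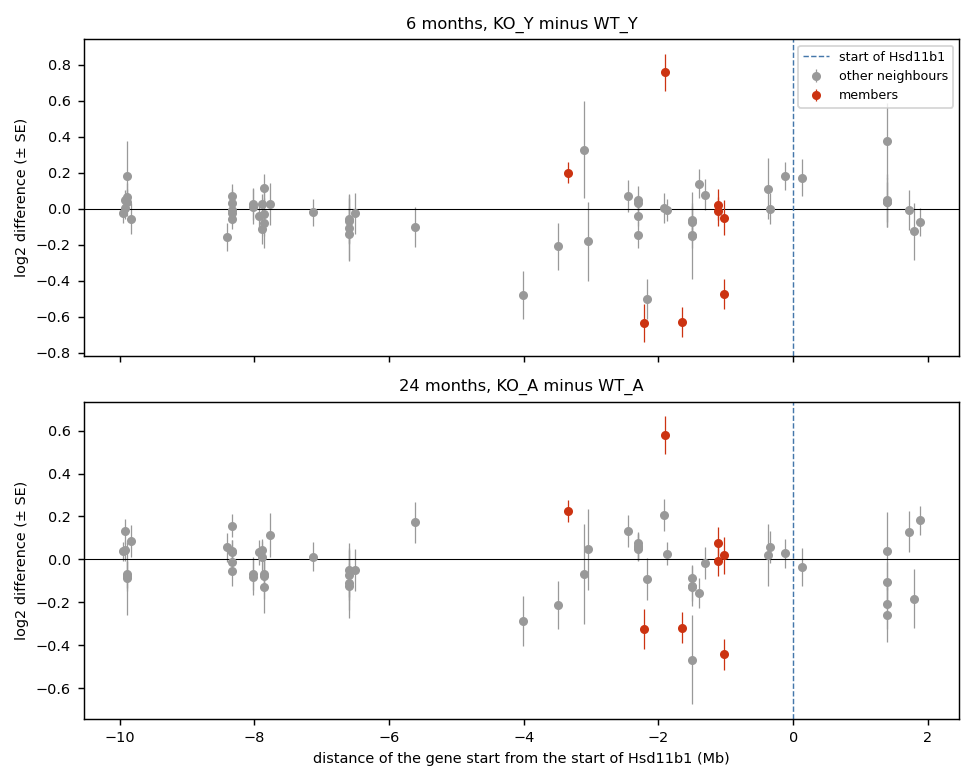
Log2 difference of normalised intensity, knockout minus wild-type (y axis), against the distance of a gene's start from that of Hsd11b1 in Mb (x axis, negative towards the centromere), for probe sets above the filter, in young mice (upper panel) and aged mice (lower panel). Red points are the 8 member probe sets, grey points the 58 other neighbours, and bars standard errors of the fit. Members reach 0.76 and -0.63 in young mice within 3.34 Mb of Hsd11b1, and most grey points lie within 0.2 of 0.

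Related genes elsewhere in the genome gave no call. Of 33 relatives (the other Kcnh channels, Smyd enzymes and Integrator subunits, Flvcr2, and the partners of the CoREST corepressors), 31 had a probe set and 25 had 1 or more above the filter, 41 probe sets in all. None was called between genotypes or ages by limma. Of all tested, 0.129% were called between genotypes in young and 0.0294% in aged mice. Between ages 0.594% were called in wild-type and 2.41% in knockout mice, so that 0 of 41 was near the general share. Between genotypes, 2 of the 41 in young and 1 in aged mice had an unadjusted limma p under 0.05, against 3.71% and 14.8% of all tested. The genotype differences of the relatives ran from -0.19 to 0.21 in young and from -0.19 to 0.12 in aged mice. Their median absolute values were 0.06 and 0.04. The largest were 0.21 for Smyd4 and -0.19 for Kcnh2 in young mice, -0.19 for Ints6 in aged mice and 0.18 for Gse1 in young mice. All 13 Integrator subunits listed beside Ints7 were measured above the filter, with differences in young mice from -0.13 to 0.17.

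Across the 20 mice, the log2 profile of Kcnh1 1418414_at was most like that of Hsd11b1 (Pearson r = 0.90), followed by Cx3cl1 (0.72) and Chka (0.71). Ints7 was most like Flvcr1 (0.83), Hsd11b1 (0.82) and Tatdn3 (0.81), and Flvcr1 was most like Ints7 (0.83), Wls (0.75) and Hsd11b1 (0.75). Pacc1 was most like Appbp2 (0.80), Tlcd3b (0.78) and St6galnac4 (0.75), none of them on chromosome 1. Smyd2 was most like Btrc (0.77), Mkrn1 (0.77) and Atat1 (0.76), and Rcor3 1428343_at most like Foxp1, Cap2 and Fig4 (0.83 each). These are descriptions over 20 mice that share arrays and fall into 2 genotypes, which the members were chosen to separate.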

How the data were processed

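The members and gene lists were chosen with earlier results of these data known. The authors read the arrays into affy (run under R 2.8.0, per the labels' list of processing tools) and normalised them together by robust multichip averaging, which equalises the distributions of the arrays, and deposited 1 normalised intensity per probe set and mouse on the linear scale, from 5.5 to 21917.7. No genome build was given in the sources used here. Intensities were turned to log2 without a pseudocount. Probe sets with at least 100 in at least 2 of 20 arrays (16995 of 45037) were fitted with limma 3.58.1 (R 4.3.3) over 5 groups with 1 estimate of the spread, two-sided, with Benjamini-Hochberg adjustment over the probe sets kept. The labels call the 4 mice of a group biological replicates, and this number limits the precision. Names came from the platform annotation (34945 probe sets with 1 symbol, 932 with several, 9160 with none) and positions from RefSeq (GRCm38.p6) by gene identifier. The fit was tested on simulated data. The text names every member probe set, their neighbours and relatives of largest difference, and the 3 most alike profiles. Alternatives were other filters, the groups compared alone, array weights, median centring, each aged wild-type group alone, a window of 5 Mb, and leaving out single mice or the 4 arrays of the highest Alb. Figures and promoter searches used Python 3.11.15, pandas 2.3.3, numpy 2.4.6 and matplotlib 3.10.9. The motifs were chosen after the values were seen. Rank products, which resample over genes, were not run.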

Additional observations from a re-analysis of the deposited data

Results flagged for a closer look

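In 100 sets of 4 values (19 member probe sets and Hsd11b1 in 5 groups), 2 held a mouse far from the other 3, where chance gives about 1 in 20 such sets. Rcor3 1428343_at read 281.0 in KO_Y-575 and 320.2 to 323.2 in the other KO_Y mice. Pacc1 1438914_at, below the filter, read 12.1 in KO_Y-585 and 10.3 to 10.6 in the others. The Rcor3 value lay within the wild-type range of 248.9 to 352.2. No member moved with age in one direction in every mouse of a genotype and in the opposite direction in every mouse of the other.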

How the results depend on the processing

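Direction held best for the members that separated the genotypes. They were chosen for their genotype differences, so that a change of sign was unlikely from the start. Kcnh1 1418414_at ranged from -0.53 to -0.41 in young and from -0.51 to -0.38 in aged mice over all alternatives, Pacc1 from 0.65 to 0.81 and 0.53 to 0.64, Ints7 from -0.70 to -0.55 and -0.38 to -0.24, Flvcr1 from -0.75 to -0.58 and -0.40 to -0.20, and Smyd2 from 0.17 to 0.23 and 0.19 to 0.27. The near-zero genotype differences of the Rcor3 pair and of Kcnh1 1435994_at changed sign under some alternatives, in young or in aged mice. The calls changed more. The number of member probe sets called between KO_Y and WT_Y was 4 in the reported fit and 2 to 4 when 1 mouse was left out. With KO_Y and WT_Y compared alone it was 3, and without the 4 arrays of the highest Alb it was 1. Between KO_A and WT_A it was 2 in the reported fit, 0 to 4 when 1 mouse was left out, 5 with array weights, 1 with arrays centred on their median, 0 with the groups compared alone, and 0 with WT_AI alone or WT_AU alone as the aged wild-type group. Between KO_A and KO_Y it was 0, but 2 with array weights and 0 to 2 when 1 mouse was left out. With KO_A and KO_Y compared alone it was 0, and the share of all probe sets called fell from 2.41% to 0.0824%. With array weights and without KO_A-41 the share of all probe sets called also rose. It reached 12.8% and 8.31% between KO_A and WT_A, and 21.8% and 15.5% between KO_A and KO_Y. Between KO_A and WT_A it fell to 0.00588% with the groups compared alone, and to 0.0118% with WT_AI alone or WT_AU alone. Other neighbours called between genotypes numbered 0, but 1 in young and 6 in aged mice with array weights, and 0 to 1 and 0 to 3 when 1 mouse was left out. Between KO_A and KO_Y, 1 of 58 was called (Cr1l), 13 with array weights (22.4%) and 10 without KO_A-41 (17.2%). Array weights lower the influence of arrays that deviate, and the cause of the other changes was not tested. Of the age and memory differences, 37 of 640 values changed sign, none of them called in the reported fit. For WT_A against WT_Y, Rcor3 1428342_at was -0.0332 with array weights, -0.00523 with centring, -0.0942 without the high Alb arrays, -0.0595 with WT_AU alone and -0.0627 to 0.0405 when 1 mouse was left out. Rcor3 1428343_at was 0.0125 with WT_AI alone and -0.138 to 0.00594 on leaving out mice, and Ints7 was 0.0468 without the high Alb arrays and -0.115 to 0.0145. Flvcr1 was -0.0478 with array weights, -0.0118 without the high Alb arrays, -0.0480 with WT_AI alone and -0.0292 to 0.0469. For KO_A against KO_Y, Rcor3 1428342_at was -0.0603 with array weights, -0.0485 without the high Alb arrays and -0.0522 to 0.0599, Rcor3 1428343_at 0.00882 with centring and -0.0577 to 0.0415, and Kcnh1 1435994_at -0.210 to 0.000163. For WT_AI against WT_AU, Kcnh1 1435994_at was -0.00109 with array weights, -0.00344 with centring and -0.0337 to 0.0477, Ints7 -0.00799 to 0.0478 and Pacc1 -0.0461 to 0.0839. No paired analysis was possible because the mouse numbers are not shared between groups. Dim probe sets, such as Rcor3 1443922_at, lie below the filter and were tested only without it.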
